A study of Homo sapiens with 4 samples.

Results

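The 275 regions described here were m6A peaks called in both MeRIP libraries of H1975 cells, at which the MeRIP signal was lower after METTL3 knockdown. They were chosen by their pileup, the number of MeRIP reads covering the summit of a peak after scaling by 1 factor per library. Of all peaks, 6863 pairs consisted of 1 NC-sh peak and 1 METTL3-sh peak that overlapped each other by at least 1 bp and overlapped no other peak of the other list. A pair was kept when the log2 ratio of METTL3-sh pileup over NC-sh pileup was -0.5 or lower, which is a METTL3-sh pileup of at most 0.707 times that of NC-sh. The 275 lower-pileup pairs made up 4.01% of the 6863 pairs. Since the pileup ratio chose them, their pileup values are a description and were not tested.

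H1975 is a long-established line of human lung adenocarcinoma (LUAD). A control shRNA (NC-sh) or an shRNA against METTL3 (METTL3-sh) was delivered to these cells, and each condition gave 1 Input and 1 MeRIP library, 4 samples in all, with lentiviral interference for 48 h according to the labels. Peak lists of the 2 MeRIP libraries were used. As each kind of library was made once per condition, none of the differences could be checked in a replicate and p-values were not computed, although the series text mentions replicates. All 21693 peaks of the lists carry names that start with H1299, the name of another human lung cancer line, whereas the labels give H1975. The study lists 1 METTL3 shRNA of 21 bases, shown here because it defines the knockdown, 5′ to 3′ with no base emphasised.
METTL3 shRNA: gctgcacttcagacgaattat

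METTL3 is the catalytic subunit of the nuclear complex that writes m6A on mRNA, together with METTL14 and WTAP. The complex acts on a short consensus around GGAC, and m6A in mRNA is found most often near stop codons and in long internal exons, where reader proteins of the YTH family bind it and influence decay and translation. MeRIP-seq pulls down m6A-bearing pieces of broken RNA with an antibody, so the height of a MeRIP peak depends on both the methylation of a transcript and its abundance. The Input library, which is not pulled down, follows abundance alone. The fold enrichment of a peak sets the pileup against a local expectation, which the peak caller takes from its control. The local expectation is used here as a stand-in for the Input signal at the peak. It was not adjusted here for the depth of the Input libraries, which is not known from the lists. Equal values in both libraries therefore need not mean an equal share of the Input. It was never below 0.511 with NC-sh or 0.588 with METTL3-sh, and at these lowest values it does not show the Input of the region.

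Positions are those of the NC-sh peak in hg19, the build named in the submitters' processing notes. Genes, transcript regions and sequences at the peaks were not analysed here, because no annotation or genome of that build was used, and the epithelial markers of the cell line were for the same reason not looked up. Regions are therefore named by position.

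In most of these 275 regions the signal was moderately lower. The median log2 pileup ratio was -0.69, with quartiles of -0.83 and -0.56 and a lowest value of -2.85. Median pileup was 54.3 with NC-sh and 31.3 with METTL3-sh. Over all 6863 pairs the median log2 ratio was 0.28, with 76.9 with NC-sh and 95.6 with METTL3-sh, so the general shift between the libraries ran towards higher pileup in METTL3-sh. A pileup in METTL3-sh of at most 0.5 times that in NC-sh was found in 45 of the 275. The scatter of pileup in both libraries shows the lower-pileup pairs as a thin fringe along the lower edge of 1 continuous cloud, and no gap separated them from the rest.

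**Figure D1:**
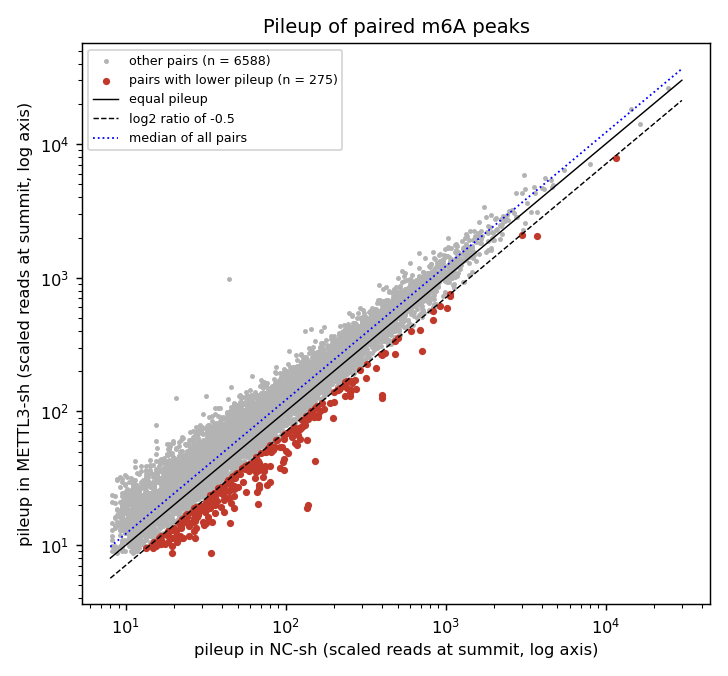
Pileup (scaled reads at the summit, log axes) of each of the 6863 pairs in NC-sh and METTL3-sh, with the 275 lower-pileup pairs in red and the other 6588 in grey. The solid line marks equal pileup, the dashed line the log2 ratio of -0.5 and the dotted line the median of all pairs, a log2 ratio of 0.28. The red points reach from a pileup of 13.4 to one of 11629 in NC-sh, whereas all pairs start at 8.18.

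The threshold fell within a continuum. Just inside it were chr2:202901050-202901589 with a log2 pileup ratio of -0.501, chr9:33577312-33577946 with -0.502 and chr12:132592944-132593248 with -0.503. Just outside it were chr2:48573311-48573897 with -0.499, chr7:5520750-5521513 with -0.499 and chr5:71489727-71490335 with -0.498. The pileup of a called METTL3-sh peak was never lower than 8.73, so a pair needed a pileup of at least 12.3 in NC-sh to meet the rule. This was not the case in 309 of the 6863 pairs.

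Pileup values were whole multiples of 1 step per library (0.327 with NC-sh and 0.364 with METTL3-sh, to within 0.006 for 100% of peaks), so 1 step is worth 1 read. On this count the summits of the 275 regions held a median of 166 reads with NC-sh (41 to 35532) and 86 with METTL3-sh (24 to 21625). Reads are the pileup divided by a constant, so the rule fixes that all 275 had fewer reads in METTL3-sh. The counts show the precision behind each ratio. The exact Clopper-Pearson 95% counting interval of the log2 reads ratio had its upper end below -0.5 in 131 of the 275. A log2 reads ratio lies 0.152 below the log2 pileup ratio of the same region, so this -0.5 is not the threshold of the rule. The same reads chose the regions, so this count is a description and no test of the threshold. Such intervals cover counting error in these 2 libraries only, and the reads are not adjusted for sequencing depth, which is not known from the lists.

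The largest fall among regions with at least 100 reads in NC-sh was at chr3:42578287-42578880. Its pileup was 136 with NC-sh and 18.9 with METTL3-sh, with 417 and 52 reads, and the log2 reads ratio was -3.00 (95% counting interval -3.45 to -2.59). A region on the X chromosome, chrX:110368534-110369420, had a pileup of 138 with NC-sh and 20 with METTL3-sh, with 421 and 55 reads. In both regions the local expectation was lower in METTL3-sh too, at 0.8 against 4.20 on chromosome 3 and 0.588 against 1.44 on the X chromosome. The value of 0.588 is at the lowest that the METTL3-sh list contains. These regions stood apart from the remainder, which all had a log2 pileup ratio above -2.

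Next came chr14:66099697-66100080, where the pileup was 34.0 with NC-sh and 8.73 with METTL3-sh. The METTL3-sh value is the lowest of its list and rested on 24 reads. At chr19:45971546-45971844 the pileup was 153 with NC-sh and 42.9 with METTL3-sh, with a local expectation of 12.8 and 5.66. This region had the third-highest pileup in NC-sh among the 12 with the largest falls, and its fold enrichment was 11.1 with NC-sh and 6.59 with METTL3-sh.

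Some of the largest falls came with a higher fold enrichment. At chr7:42004075-42004667 the pileup was 66.8 with NC-sh and 20.4 with METTL3-sh. The local expectation there was 8 with NC-sh and 1 with METTL3-sh, and fold enrichment was accordingly 7.53 and 10.7. The same was seen at chr18:76756815-76757913, with a pileup of 403 and 125, an expectation of 21.0 and 3.66 and a fold enrichment of 18.3 and 27.1. At chr19:42702747-42703960 pileup was 400 with NC-sh and 133 with METTL3-sh, expectation 62.0 and 14.0, and fold enrichment 6.36 and 8.94. In this last region the summits lay 628 bp apart, and the peak measured 1214 bp in NC-sh and 401 bp in METTL3-sh. The lower pileup there was thus read at another place in the same region.

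In other regions of these 12 the local expectation was not lower. At chrX:112065710-112066069 pileup was 76.3 with NC-sh and 28.4 with METTL3-sh with an expectation of 2 and 2.60. At chr20:6759042-6759742 pileup was 79.2 and 29.8, and the expectation was 4 in both libraries. At chr4:48138088-48138634 pileup was 97.2 and 36.7, and the expectation was 1 and 4. The last of the 12, chr6:2272614-2272921 and chr8:81548773-81549250, had a lower expectation again, with a pileup of 44.5 and 65.8 with NC-sh and of 14.5 and 25.1 with METTL3-sh. Of the 12 regions, 9 had a lower local expectation in METTL3-sh, 2 a higher and 1 an equal one.

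The 8 strongest peaks of the 275 had log2 pileup ratios between -0.86 and -0.50, on both sides of the median of -0.69. At chr17:48166459-48167603 the pileup was 11629 with NC-sh and 7863 with METTL3-sh, from 35532 and 21625 reads, with a log2 pileup ratio of -0.56. The summits were 1 bp apart, the expectation was 254 with NC-sh and 219 with METTL3-sh, and fold enrichment was 45.6 and 35.7. At chr10:75676147-75676618 the pileup was 3728 with NC-sh and 2051 with METTL3-sh, while the expectation was 387 and 166, so fold enrichment was 9.61 and 12.3. At chr9:19376185-19376800 the pileup was 3004 with NC-sh and 2087 with METTL3-sh with the summits at the same base. The expectation there was nearly equal, at 218 and 214, and fold enrichment was 13.7 and 9.71.

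The other 5 of the 8 strongest regions had an NC-sh pileup between 833 and 1062. At chr12:13061130-13061596 it was 1014 with NC-sh and 596 with METTL3-sh, with an expectation of 69.0 and 51. At chr19:33088405-33089409 it was 833 and 487, with an expectation of 10 and 8 and the highest fold enrichment of the 8 in both libraries, 75.8 and 54.2. At chr2:202901050-202901589 it was 1062 and 750, whereas the expectation was 20 and 33.0, and fold enrichment was 50.6 and 22.1. At chr1:234742968-234743478 it was 1062 and 725, with an expectation of 44.0 and 29.5 and an almost equal fold enrichment of 23.6 and 23.8. At chr3:98557458-98558329 it was 917 and 614, with an expectation of 24.0 and 17.0. The 8 strongest regions had summits at most 26 bp apart. METTL3-sh had the lower fold enrichment in 6 of them and the higher in 2, and the local expectation was lower in 7.

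**Figure D2:**
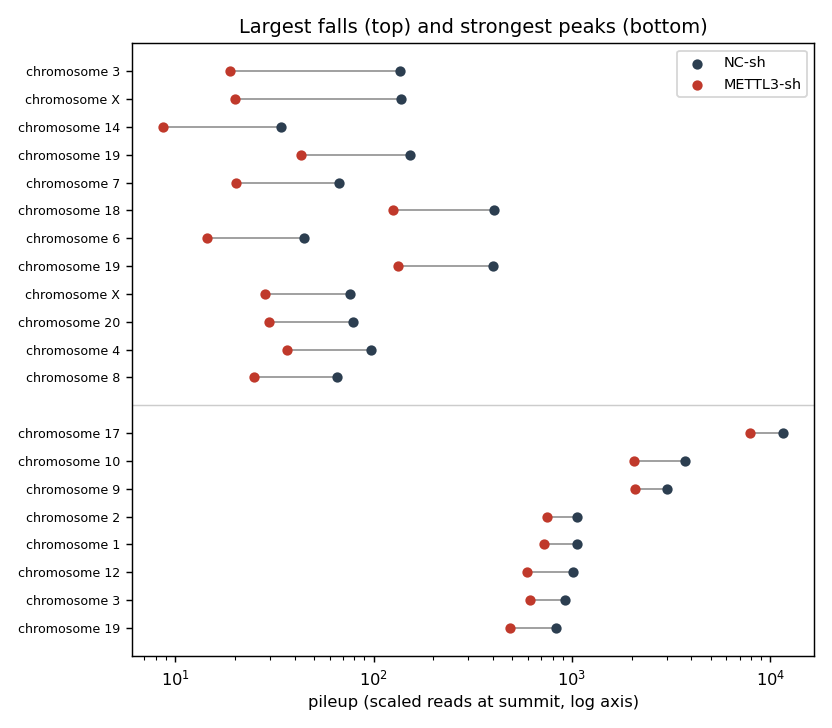
Pileup (scaled reads at the summit, log axis) in NC-sh (dark) and METTL3-sh (red) for the 12 regions with the largest falls among those with at least 100 reads in NC-sh (top) and the 8 regions with the highest NC-sh pileup (bottom), each labelled by its chromosome. Each point is 1 library. The falls at the top reach from 136 to 18.9, whereas the strongest peak had 11629 and 7863.

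The local expectation at these regions was described next. The pileup rule did not use the local expectation, but the peak lists did, since only peaks with a fold enrichment over 6 are in them. Whether the Input also entered the scaling of the pileup is not known from the lists. A region with a lower pileup thus stayed in the METTL3-sh list more readily when its local expectation was lower too, and the shares in this paragraph are partly set by that limit. The local expectation was lower in METTL3-sh in 163 of the 275 regions (59.3%, 95% Wilson CI 53.4 to 64.9%), against 34.0% of the other pairs (32.8 to 35.1%). The median log2 ratio of the expectation was -0.26 in the 275 regions and 0.20 in all pairs. Lower, equal and higher are counted from a log2 ratio of 0 and not from this 0.20, without adjustment for Input depth. It was lower by 0.5 or more on the log2 scale in 106 of the 275 (38.5%), against a background of 17.7% of all pairs. It was within 0.5 in 127 (46.2%), near the 50.8% of all pairs. It was higher by 0.5 or more in 42 (15.3%), against 31.5% of all pairs. In bulk RNA, less of a transcript per cell and fewer cells with that transcript cannot be told apart, and the Input libraries have no replicate. The intervals cover counting error only.

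The expectation itself rested on few reads in many regions. It was below 5 in both libraries in 177 of the 275 regions (64.4%), against 42.0% of the other pairs, and its median was 2.80 with NC-sh and 2 with METTL3-sh. It stood at the lowest value that the METTL3-sh list contains, 0.588, in 47 regions (17.1%), against 6.31% of the other pairs. At the lowest value of the NC-sh list, 0.511, it stood in 29 regions (10.5%), against 7.83%. A region at the lowest value in both libraries, such as chr20:44322725-44322980, has a log2 expectation ratio of about 0.20. It is counted as higher although the ratio reflects only the 2 lowest values. In the 45 regions with an NC-sh expectation of at least 10, METTL3-sh had the lower value in 35 (77.8%), against 42.7% of the 2082 other pairs with such an expectation, and the same limit acts on these shares.

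To see how much room the limit left, the METTL3-sh pileup was set against the NC-sh expectation. This gives the fold enrichment that the region would have had with an unchanged local expectation. This value was under 6 in 62 of the 275 regions, which could be in the METTL3-sh list only with a lower expectation. In the remaining 213 the expectation was lower in 101 (47.4%, 95% Wilson CI 40.8 to 54.1%), against 33.3% of the 6520 other pairs of that kind, with a median log2 expectation ratio near 0 (-9.13e-05). In the 75 regions where the value was at least 12, far from the limit, it was lower in 25 (33.3%, 23.7 to 44.6%), against 28.1% of 4374 other pairs (26.7 to 29.4%), and the median log2 expectation ratio was 0.24 against 0.32. A difference in the local expectation was not detectable among these 75 regions, which by this choice also have a low NC-sh expectation.

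**Figure D3:**
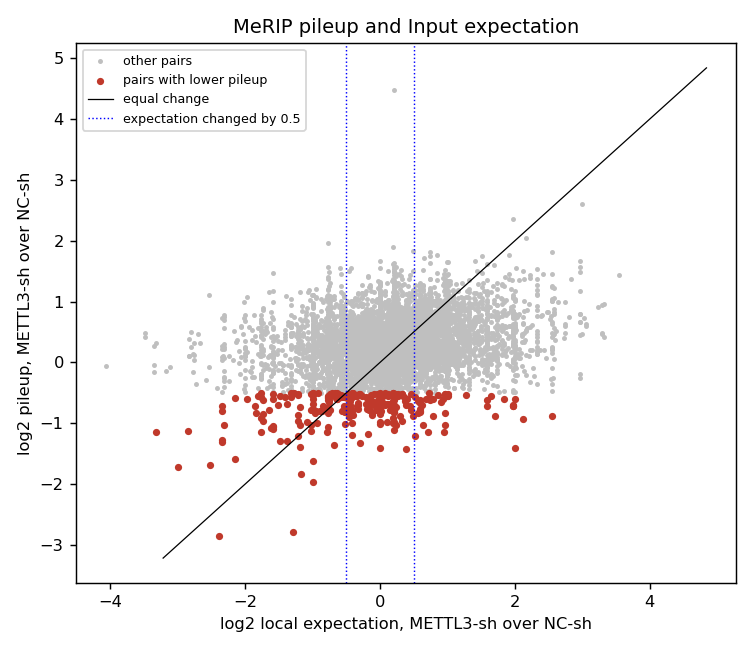
Log2 ratio (METTL3-sh over NC-sh) of the local expectation on the horizontal axis and of pileup on the vertical axis for the 275 lower-pileup pairs (red) and the other pairs (grey), 1 point per pair. The solid line marks an equal change of both, and the dotted lines a change of the expectation by 0.5. Of the red points, 106 lie at or left of -0.5, 127 between the dotted lines and 42 at or right of 0.5.

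Fold enrichment followed from both measures and contains the pileup that chose the regions, so it is given as a description. It was lower in METTL3-sh in 219 of the 275 regions (79.6%) and higher in 56 (20.4%), against 41.1% and 58.9% of all pairs. Its median in the 275 regions was 14.2 with NC-sh and 9.36 with METTL3-sh. A fall by 0.5 or more on the log2 scale was found in 145 (52.7%), against a background of 15.6% of all pairs. The METTL3-sh peak was close to the limit of 6 above which peaks were deposited, with a fold enrichment under 8, in 97 of the 275 (35.3%). Among all pairs this share was 15.9%.

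The 106 regions in which the expectation was lower by at least 0.5 had a median fold enrichment of 10.5 with NC-sh and 10.6 with METTL3-sh. Pileup and expectation were both lower in them, with a median pileup of 50.7 and 28.4 and a median expectation of 3.10 and 1.2. All 56 regions with a higher fold enrichment belonged to this group, which follows from the way the groups are defined. The most extreme was chr14:59112147-59113712, with a pileup of 98.2 with NC-sh and 44.4 with METTL3-sh and an expectation of 12 and 1.2. Its fold enrichment was 7.63 and 20.6. A strong example with a lower fold enrichment was chr5:159344432-159344991, with a pileup of 688 and 407, an expectation of 80.6 and 55.8 and a fold enrichment of 8.44 and 7.18.

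In the 127 regions with an expectation within 0.5, the median pileup was 48.4 with NC-sh and 28.4 with METTL3-sh, and the median expectation was 2.54 and 2.20. Median fold enrichment was 14.5 and 8.83. Of the 8 strongest regions, 5 belonged to it, namely those on chromosomes 3, 9, 12, 17 and 19 given above. A log2 fold enrichment below 0 in all 127 follows from the way the group is defined.

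In the 42 regions with an expectation higher by at least 0.5, the median pileup was 69.7 with NC-sh and 37.8 with METTL3-sh, and the median expectation was 1.37 and 3.02. Pileup and expectation went in opposite directions by the definition of this group, and the median fold enrichment was 25.3 and 8.33. At chr5:52097222-52097846 the pileup was 604 with NC-sh and 400 with METTL3-sh, the expectation 24.0 and 46.0, and fold enrichment 24.2 and 8.52. At chr19:36210746-36211431 the pileup was 479 and 271, the expectation 13.3 and 20, and fold enrichment 33.6 and 12.9. At chr6:151686248-151687350 the pileup was 418 and 273, the expectation 6 and 9, and fold enrichment 59.9 and 27.4. At chr16:3658406-3659272 the pileup was 74.0 and 38.9, and fold enrichment 46.9 and 11.1, but the expectation was only 0.6 and 2.60.

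Lower-pileup pairs were found among weak and strong NC-sh peaks. NC-sh reads enter the ratio that chose the regions, so the shares by strength are a description only. All pairs were ranked by reads at the NC-sh summit and divided into 4 groups of equal size. Lower-pileup pairs made up 4.31% of the weakest (25 to 96 reads), 5.59% of the second (96 to 235 reads), 3.73% of the third (235 to 625 reads) and 2.39% of the strongest. The 309 pairs too weak in NC-sh to meet the rule are all in the weakest group and lower its share. At least 1000 reads in NC-sh were found at 21 of the 275 (7.64%), against 15.4% of the other pairs. The local expectation, under the limit on fold enrichment given above, was lower in METTL3-sh in 50%, 62.5%, 57.8% and 70.7% of the lower-pileup pairs from the weakest to the strongest, against 24.2%, 36.2%, 36.8% and 38.5% of the other pairs.

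The peaks also differed in shape. The METTL3-sh peak was shorter than the NC-sh peak in 188 of the 275 regions (68.4%, 95% Wilson CI 62.6 to 73.6%), against 40.5% of the other pairs (39.3 to 41.6%). Median length was 384 bp in NC-sh and 360 bp in METTL3-sh, whereas over all pairs it was 437 bp and 469 bp. The length of a called peak moves with its signal, so length is not independent of the pileup. The largest reduction by length ratio was at chr2:96491717-96492809, from 1093 bp in NC-sh to 286 bp in METTL3-sh, with the summits 6 bp apart. The largest extension by length ratio was at chr8:81897176-81897442, from 267 bp to 729 bp, where the pileup was 49.4 and 33.8. The summits of the 275 pairs lay a median of 25 bp apart, against 17 bp for all pairs. They were within 20 bp in 121 (44.0%), against 54.7% of all pairs, and over 100 bp apart in 28 (10.2%), against 7.04%. The farthest were at chr16:89293790-89294984, 770 bp apart, where the NC-sh peak of 1195 bp held a pileup of 96.6 and the METTL3-sh peak of 417 bp a pileup of 42.2.

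Most of these regions stood alone, but so did most of the other pairs. Only 1699 of the 6588 other pairs had a further pair with its NC-sh summit within 5 kb, a share similar to that of the 275 regions. Standing alone therefore did not set these regions apart. In 210 of the 275 no other pair had its NC-sh summit within 5 kb. Around the remaining 65 lay 81 pairs within that distance, of which 8 were lower-pileup pairs themselves (9.88%), against 3.44% of the pairs within 5 kb of the other pairs. These 8 formed 4 loci with a pair of regions each, so each adjacency is counted from both sides and no interval is given. At chr7:42004075-42004667 and chr7:42004848-42005118 the pileup was 66.8 and 45.2 in NC-sh and 20.4 and 20.7 in METTL3-sh. The expectation was lower at both, at 1 and 0.720 with METTL3-sh, and fold enrichment was higher in METTL3-sh at both. At chr8:81548773-81549250 and chr8:81552216-81553058 the pileup was 65.8 and 72.7 in NC-sh and 25.1 and 35.6 in METTL3-sh, and the expectation and fold enrichment were both lower.

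The other loci were less uniform in the local expectation. At chr9:69774608-69774958 and chr9:69777391-69777664 the pileup was 74.6 and 34.7 in NC-sh and 38.2 and 14.9 in METTL3-sh. The expectation was 4 and 5 at the first and 1.40 and 0.6 at the second. At chr19:33088405-33089409 and chr19:33090420-33090867 the pileup was 833 and 115 in NC-sh and 487 and 70.9 in METTL3-sh, while the expectation at the second was 4.60 and 4.96. A further pair within 5 kb at the chromosome 9 locus had a log2 pileup ratio of 0.11, higher in METTL3-sh. The loci were picked because both of their regions met the threshold.

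Neighbours that did not meet the threshold were also shifted. The 73 such pairs within 5 kb of a lower-pileup pair had a median log2 pileup ratio of 0.054 (quartiles -0.16 and 0.29), against 0.29 (quartiles 0.048 and 0.57) for the 1654 near other pairs. Pileup was lower in METTL3-sh in 33 of the 73 (45.2%), against 21.0%. Their median log2 expectation ratio was -0.00037, against 0.21. At 5 to 20 kb the median log2 pileup ratio was 0.21 against 0.31, and at 20 to 100 kb it was 0.28 against 0.32. Of these 3 distance classes, the nearest had the largest difference in the median. Within 2 kb, pileup was lower in 15 of 41 such pairs (36.6%), a smaller share than within 5 kb. Neighbours can lie on the same transcript and come from the same libraries, so they are not independent of the regions beside them.

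**Figure D4:**
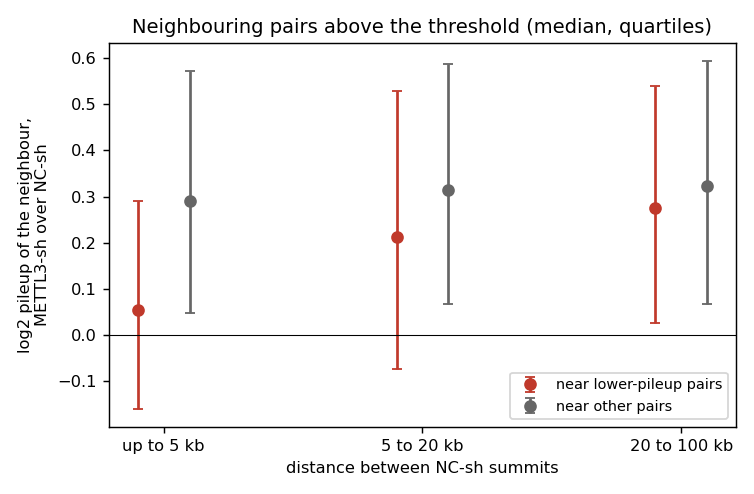
Log2 pileup ratio (METTL3-sh over NC-sh; points are medians, bars quartiles) of pairs above the threshold of -0.5, by the distance of their NC-sh summit from a lower-pileup pair (red) or from another pair (grey). Within 5 kb the medians are 0.054 and 0.29, and at 20 to 100 kb they are 0.28 and 0.32.

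For peaks called in 1 library only, no difference around the 275 regions was detectable at these numbers. An NC-sh peak without METTL3-sh partner lay within 5 kb of 21 (7.64%, 95% Wilson CI 5.05 to 11.4%), against 8.64% of the other pairs. A METTL3-sh peak without NC-sh partner lay within 5 kb of 33 (12%, 8.67 to 16.4%), against 15.6%. Both intervals include the share in the other pairs.

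The regions were spread over 23 chromosomes. Chromosome 19 held the most, 28 of its 505 pairs (5.54%), followed by chromosomes 9 and 10 with 21 each. The share was highest on chromosome 21 (7 of 95 pairs, 7.37%, 95% Wilson CI 3.61 to 14.4%), chromosome 9 (21 of 287, 7.32%, 4.84 to 10.9%) and chromosome 10 (21 of 291, 7.22%, 4.77 to 10.8%). It was lowest on chromosome 15 (3 of 232, 1.29%, 0.441 to 3.73%), chromosome 1 (9 of 583, 1.54%, 0.814 to 2.91%) and chromosome 17 (6 of 342, 1.75%, 0.806 to 3.77%), not counting the single pair on the Y chromosome. Among these 23 chromosomes the intervals of chromosomes 9 and 10 lay above the share of 4.01% among all pairs, and those of chromosomes 1, 15 and 17 below it. The intervals were not adjusted for the number of chromosomes looked at, so some can miss this share by counting error alone. The other pairs had a median log2 pileup ratio of 0.20 on chromosome 10 and 0.23 on chromosome 9, against 0.36 on chromosome 1, 0.35 on chromosome 15 and 0.32 on chromosome 17, where 0.31 was the median of all other pairs. Their median log2 expectation ratio was 0.079 on chromosome 10 and 0.20 on both chromosome 9 and chromosome 1. All these medians were above 0, and the part of the general shift of a chromosome in its share was not tested. Pairs on 1 chromosome share both libraries and can share a transcript.

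**Figure D5:**
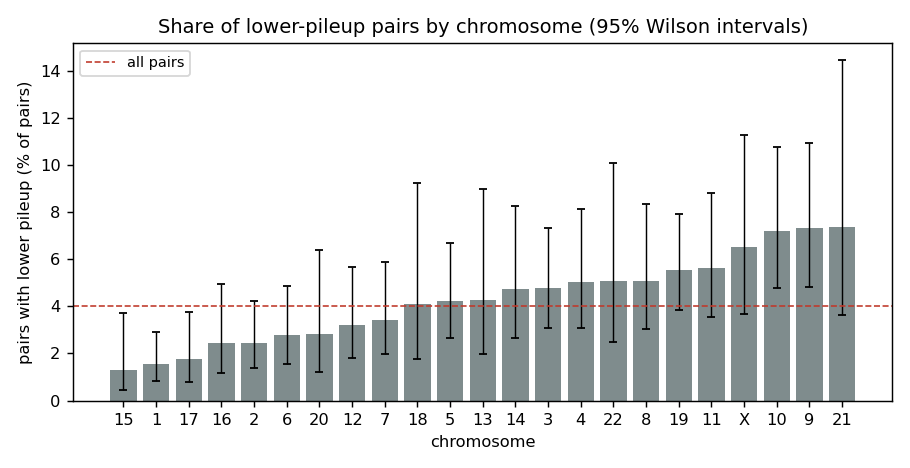
Share of lower-pileup pairs among the pairs of each chromosome (% of pairs, bars) with 95% Wilson intervals, in order of the share; the dashed line marks 4.01%, the share among all pairs, and the Y chromosome with 1 pair is left out. The shares range from 1.29% on chromosome 15 to 7.37% on chromosome 21.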

How the data were processed

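MeRIP-seq peak lists of 1 NC-sh and 1 METTL3-sh library of H1975 cells were used, with groups taken from the sample titles. The submitters' processing notes name bcl2fastq, TopHat2 2.0.13, MACS2 2.1.0.20151222 and hg19, without their roles. The pileup deposited by the authors is a signal, namely reads covering the summit, scaled within each library. Fold enrichment, as deposited, is the ratio (pileup + 1) / (local expectation + 1), and the −log10 p and q values deposited by the authors come from the peak caller. All deposited peaks had a fold enrichment above 6, the filter not being stated.

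Reads were computed as pileup divided by its step, and the local expectation as (pileup + 1) / fold enrichment − 1, with log2 changes of up to 0.01 counted as equal. Summits held a median of 169 reads in NC-sh (at least 25) and 132 in METTL3-sh (at least 24). Peaks were paired as described above, and pairing was tested on simulated data. Shares have 95% Wilson intervals. Regions and lists were chosen with earlier results of these data known.

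The 12 regions with the lowest pileup ratio among those with at least 100 reads in NC-sh, the 8 with the highest NC-sh pileup and the 3 on either side of the threshold were named by rule. The rule asked for regions within named genes, which could not be applied without an annotation of the build, so neighbouring regions within 5 kb took the place of regions in 1 gene. The loci, the examples by Input and those of length and summit distance were chosen after their values were seen. The planned gene lists, transcript regions and GGAC search were not run for the same reason. Alternatives were other measures, thresholds, overlaps and strength filters. Python 3.11.15, numpy 2.4.6, pandas 2.3.3, scipy 1.17.1 and matplotlib 3.10.9 were used.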

Additional observations from a re-analysis of the deposited data

How the results depend on the processing

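The number of lower-pileup pairs depended on the measure and the scaling. With reads at the summit in place of pileup it was 502, with fold enrichment 1070, and with the median of all pairs taken out of the pileup ratio 814, against 275 as described. A threshold of -0.75 left 108 pairs and one of -1 left 45. Requiring a −log10 q of at least the lists' median (36.6) for both peaks gave 91, of 4097 such pairs. Requiring 50% of each peak to overlap gave 260 of 6483 pairs, and summits within 100 bp gave 252 of 6580. At least 100 reads in NC-sh gave 196 of 5079. These counts come from fewer pairs than the 275.

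The share with a lower fold enrichment was between 75.5 and 80.4% when regions were chosen by reads, at a threshold of -1, with the 50% overlap or with at least 100 reads. It was 64.4% among the 45 regions with a local expectation of at least 10 in NC-sh. The share with a lower local expectation was 56.4% for regions chosen by reads, 58.1% with the 50% overlap and 62.8% with at least 100 reads, but 75.6% at a threshold of -1 and 77.8% with an expectation of at least 10. It was 47.4% in regions that would have had a fold enrichment of at least 6 at the NC-sh expectation. In those with at least 12 it was 33.3%. This choice favours both a greater distance from the fold enrichment limit and a lower NC-sh expectation, which cannot be told apart. The share of neighbours with a lower pileup was 36.6% within 2 kb, 39.6% within 10 kb and 54.5% around regions at or below -1, the last of only 11 pairs. The alternatives of the expectation and of the neighbours, and the filters on reads and expectation for these shares, were chosen after seeing the data. No cause of the changes in these counts and shares was tested. The alternatives planned for GGAC and transcript regions could not be run without an annotation. No paired analysis was possible because a single MeRIP library stood for each condition.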

Other observations

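A lower pileup and a lower fold enrichment named partly the same regions. Fold enrichment was lower by 0.5 or more on the log2 scale in 1070 of the 6863 pairs. Of these, 145 were among the 275 lower-pileup pairs. This is 13.6% of the 1070, where lower-pileup pairs were 4.01% of all pairs. It is 52.7% of the 275, where such a fold enrichment was found in 15.6% of all pairs. In 585 of the 1070 (54.7%) pileup was not lower in METTL3-sh at all, and the local expectation of those 585 had a median log2 ratio of 1.42. In the 925 that were not lower-pileup pairs, the median log2 pileup ratio was 0.12 and that of the expectation 1.19. As the measures share the pileup, this comparison is a description.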
